A study of Mus musculus with 6 samples.

Results

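Polycomb repressive complex 2 (PRC2) was followed through the messenger RNA of its subunits in mouse muscle satellite cells, which divide and fuse to replace damaged fibres. The members were 10 listed genes out of 54123 in the deposited quantification: the core subunits Ezh2, Ezh1, Eed and Suz12, the PRC2.1 accessory subunits Epop, Phf19, Mtf2 and Phf1, and the PRC2.2 accessory subunits Jarid2 and Aebp2. The list is one of gene names, with no threshold on measured values. RNA was sequenced from 6 samples of adult C57BL/6 mice, 2 in each of 3 genotypes. The genotypes were Jmjd3 KO (loss of the demethylase gene Kdm6b), Utx KO (loss of the demethylase gene Kdm6a) and Tdt Control, which the series title calls wild-type. In all 3 genotypes the tibialis anterior and gastrocnemius muscles had been injected with cardiotoxin, a snake peptide used to injure muscle, and satellite cells were sorted by fluorescence 30 h later. The title marks both deletions as made in satellite cells, but the driver of the deletion, the deleted exons, the exact age, the sex and whether replicates came from separate animals are not given in the sources used here. The p-values therefore measure the spread between these samples, which may be technical.

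PRC2 places the repressive trimethyl mark on lysine residues of the histone H3 tail, and the enzymes encoded by Kdm6a and Kdm6b remove it. The core needs a catalytic subunit, EZH2 or its slower paralogue EZH1, together with EED, which binds the finished mark and stimulates the enzyme, and SUZ12, the scaffold that holds the complex together. SUZ12 also receives the accessory subunits, which fall into mutually exclusive forms: PRC2.1 carries a Polycomb-like protein (PHF1, MTF2 or PHF19) and in some complexes EPOP, and PRC2.2 carries JARID2 and AEBP2. In satellite cells EZH2 is known for repressing muscle genes before differentiation and for supporting proliferation.

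The libraries held 63607780 to 64928614 estimated reads in Jmjd3 KO, 53750675 to 59768154 in Utx KO and 65893124 to 77675388 in Tdt Control. The deleted genes were read first. Kdm6b had 15.9 and 16.5 CPM (reads scaled to a common normalised library size) in Jmjd3 KO and 29.9 and 22.7 CPM in Tdt Control, a log2 fold change of -0.70 ± 0.12 (SE) with adjusted p = 0.0243. Kdm6a had 7.68 and 7.38 CPM in Utx KO and 32.8 and 34.0 CPM in Tdt Control, a log2 fold change of -2.15 ± 0.06. Both targeted genes were lower in the libraries labelled as their knockouts, and reads from exons outside a deletion would remain in these counts. Kdm6b had 23.0 and 22.2 CPM in Utx KO. In Jmjd3 KO against Utx KO its log2 fold change of -0.48 ± 0.12 did not pass by edgeR (adjusted p = 0.0501), while DESeq2 called it lower. The summed level of 10 satellite cell markers was 4357 and 4405 CPM in Jmjd3 KO, 4155 and 4227 CPM in Utx KO and 4109 and 4111 CPM in Tdt Control. Single markers moved both ways: against Tdt Control, Des (log2 fold change 0.35) and Fgfr4 (0.50) were higher and Myod1 (-0.22) lower in Jmjd3 KO, and Myf5 (0.44) and Fgfr4 (0.48) were higher and Myod1 (-0.22) lower in Utx KO. In Jmjd3 KO against Utx KO, Des was higher (0.38) and Myf5 (-0.50) and Vcam1 (-0.24) were lower. Des alone averaged 1401 CPM in Jmjd3 KO, 1079 CPM in Utx KO and 1102 CPM in Tdt Control. The Y-chromosome gene Uty, a paralogue of Kdm6a, was lower in Jmjd3 KO than in Utx KO (log2 fold change -0.80, adjusted p = 0.0350). Markers of other cells were present at lower levels and none was at 0 in every library. The 10 macrophage and monocyte markers summed to 278 and 246 CPM in Jmjd3 KO, 161 and 192 CPM in Utx KO and 177 and 210 CPM in Tdt Control. The 9 neutrophil markers summed to 181 and 136 CPM in Jmjd3 KO, 121 and 147 CPM in Utx KO and 89.6 and 102 CPM in Tdt Control.

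The level of Eed could not be rebuilt from the transcripts. Those that could be matched to the gene annotation carried 29.9% of the mean normalised count that the authors' deposited table gives for the gene (1081.7 of 3621.7), whereas those of the other 9 members carried 98.7% to 99.8%. The tests below cover 9 members, all of which passed the filter on low counts. In the authors' deposited table Eed had a log2 fold change of -0.07 ± 0.08 in Jmjd3 KO against Tdt Control, with adjusted p = 0.589, and of 0.03 ± 0.07 in Utx KO against Tdt Control, with adjusted p = 0.851. Neither value passed 0.05. These values come from another fit, and their sizes cannot be set directly beside the tests below. In Jmjd3 KO against Tdt Control that table gives Ezh1 as 0.13 ± 0.12, where edgeR gave 0.25 ± 0.07, and Epop as -0.63 ± 0.11, where edgeR gave -0.64 ± 0.06.

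Epop, Suz12 and Ezh1 lie on chromosome 11, which also carries Kdm6b. In GRCm38, Epop spans chr11:97627389-97629702 on the minus strand, Suz12 chr11:79993106-80034123 on the plus strand and Ezh1 chr11:101191115-101226463 on the minus strand. Ezh2 (chr6:47530139-47595341, minus) and Aebp2 (chr6:140622663-140678472, plus) share chromosome 6, and Phf19 is at chr2:34893757-34914026 on the minus strand. Mtf2 is at chr5:108065674-108109004 (plus), Eed at chr7:89954654-89980983 (minus), Jarid2 at chr13:44729474-44921643 (plus) and Phf1 at chr17:26933052-26937908 (plus).

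Ezh2 and Eed are known targets of E2F factors, which turn on cell cycle genes, so 4 E2F octamers (TTTCCCGC, TTTGGCGC, TTTCGCGC and TTTGCCGC, on both strands) were searched in the RefSeq promoter windows of GRCm38.p6, which run from 250 bases before to 50 bases after each start site. Of the members, 9 of 10 had a window (13 windows in all), and Epop had none. The windows of Phf19, Ezh2 and Suz12 held 1 octamer each, and 2.26% of the 32851 windows of all genes held at least 1. These are also the 3 members with a window that passed the test between Jmjd3 KO and Utx KO below, and they are printed for that reason, 5′ to 3′ on the gene's strand, with the octamer or its reverse complement in capitals. The Phf19 window is chr2:34913927-34914226 (minus) with the octamer starting 208 bases before the start site, the Ezh2 window is chr6:47594981-47595280 (minus) with the octamer 3 bases after it, and the Suz12 window is chr11:79992856-79993155 (plus) with the octamer 219 bases before it. These 3 windows were rich in CpG, with counts of 31 (Ezh2), 41 (Suz12) and 38 (Phf19) against a median of 7 over all windows. The windows without an octamer had counts of 30 and 2 (Mtf2), 24 and 23 (Jarid2), 24 (Phf1), 23 (Ezh1), 21, 4 and 4 (Aebp2) and 17 (Eed). The share with an octamer was not taken among CpG-rich windows alone. Between the knockouts Phf19 moved in the opposite direction to Ezh2 and Suz12, and a link between octamers and calls was not tested. A match describes the letters and does not show a bound site, and the window of Eed held none of the 4 octamers.
Ezh2: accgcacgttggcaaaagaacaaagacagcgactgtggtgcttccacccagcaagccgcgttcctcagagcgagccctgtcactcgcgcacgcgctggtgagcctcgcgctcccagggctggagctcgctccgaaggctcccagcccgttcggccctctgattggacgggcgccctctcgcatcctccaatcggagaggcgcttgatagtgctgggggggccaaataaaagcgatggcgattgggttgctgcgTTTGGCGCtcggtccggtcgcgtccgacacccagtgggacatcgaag
Suz12: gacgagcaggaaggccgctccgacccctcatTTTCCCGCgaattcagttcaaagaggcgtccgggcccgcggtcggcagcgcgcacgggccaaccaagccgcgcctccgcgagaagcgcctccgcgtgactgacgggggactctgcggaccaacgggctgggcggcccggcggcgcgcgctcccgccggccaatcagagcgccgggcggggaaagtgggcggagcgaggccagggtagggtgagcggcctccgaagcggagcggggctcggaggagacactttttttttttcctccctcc
Phf19: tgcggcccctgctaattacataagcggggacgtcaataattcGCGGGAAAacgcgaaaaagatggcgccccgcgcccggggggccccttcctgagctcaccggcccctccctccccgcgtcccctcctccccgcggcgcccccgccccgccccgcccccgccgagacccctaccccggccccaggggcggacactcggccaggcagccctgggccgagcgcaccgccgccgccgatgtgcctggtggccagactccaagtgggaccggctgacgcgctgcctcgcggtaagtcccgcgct

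Per transcript length, the PRC2.2 gene Aebp2, which encodes a zinc finger protein, was the highest of the 9 members, at 33.0 ± 2.62 TPM (a share of all transcripts that is scaled by length, mean ± SD over the 6 libraries). Ezh2 followed at 18.7 ± 1.1 TPM and Suz12 at 15.0 ± 1.02 TPM, and each of these 3 genes stood above the next in all 6 libraries without overlap of their ranges. Mtf2 was at 8.29 ± 0.37 TPM, most of it assigned to non-coding transcripts (given below), and Epop at 7.45 ± 2.24 TPM. Their ranges overlapped, and Mtf2 was the higher in 4 of 6 libraries. Epop and Phf19 (5.17 ± 1.27 TPM) overlapped in the same way, Epop being higher in 4 of 6. Jarid2 averaged 2.95 ± 0.34 TPM and Ezh1 2.49 ± 0.29 TPM, with overlapping ranges, although Jarid2 was the higher in each library. Phf1 was lowest, at 1.5 ± 0.14 TPM.

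**Figure D1:**
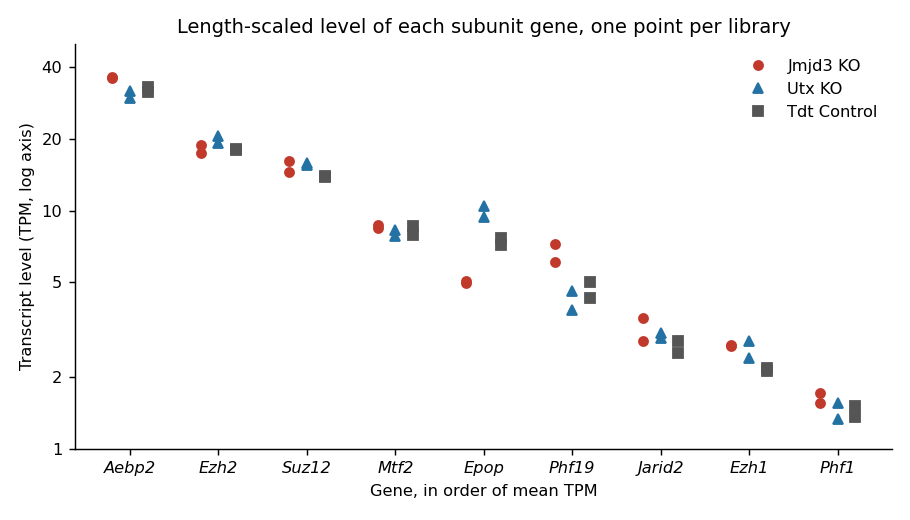
Level of 9 PRC2 subunit genes in TPM on a log axis, 1 point per library, with genes in order of their mean over the 6 libraries and Jmjd3 KO left of Utx KO and Tdt Control. Aebp2 lies between 29.8 and 36.2 TPM and Phf1 between 1.33 and 1.72 TPM, and the points of Epop and Phf19 spread most between genotypes.

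Epop, which encodes an adaptor that links PRC2.1 to elongin B and C, was the subunit gene with the largest differences. It had 12.5 and 12.0 CPM in Jmjd3 KO, 25.9 and 24.3 CPM in Utx KO and 19.2 and 19.1 CPM in Tdt Control. The 3 genotypes did not overlap, with Jmjd3 KO lowest, Tdt Control between and Utx KO highest. Epop has 1 transcript in the annotation, so its level does not depend on how reads were shared among isoforms. Bulk RNA cannot tell fewer cells that express a gene from less RNA per cell, here or for any other member.

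In Jmjd3 KO against Tdt Control, Epop was the single member of 9 that passed the test, and it fell 1.56-fold (log2 fold change -0.64 ± 0.06, 95% interval -0.79 to -0.50, adjusted p = 0.00327). Across all 17084 genes tested in that comparison 3.0% passed in either direction, 1.97% higher and 1.03% lower. The median log2 fold change of the 9 members was 0.06, against 0.00 for all genes tested. The call on Epop held in each of 12 alternative settings, with log2 fold changes of -0.68 to -0.61.

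The catalytic and scaffold genes did not pass in that comparison. Ezh2 had 54.2 and 54.5 CPM in Jmjd3 KO and 55.1 and 55.2 CPM in Tdt Control (log2 fold change -0.02, 95% interval -0.13 to 0.09). Suz12 had 51.2 and 55.7 CPM in Jmjd3 KO and 52.7 and 54.3 CPM in Tdt Control, with overlapping groups and an interval of the log2 fold change of -0.13 to 0.13. Ezh1 had 16.1 and 16.2 CPM in Jmjd3 KO and 13.9 and 13.3 CPM in Tdt Control, without overlap. Ezh2, Jarid2, Mtf2, Phf19 and Aebp2 had no overlap either and did not pass, and the share of all genes without overlap was not counted. The log2 fold change of Ezh1, 0.25 ± 0.07, had an adjusted p of 0.109.

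Among the other accessory genes, Phf19, a Polycomb-like gene whose protein reads methylated histone H3, had 25.5 and 25.6 CPM in Jmjd3 KO and 23.3 and 19.5 CPM in Tdt Control (log2 fold change 0.26 ± 0.08, adjusted p = 0.148). The Tdt Control libraries were further apart from each other than either Jmjd3 KO library was from the nearer of them. The value rested on them: the log2 fold change of Phf19 was 0.39 without Tdt Control replicate 1, 0.14 without Tdt Control replicate 2 and 0.42 with transcript length offsets, and without the low-count filter its adjusted p was 0.00940. Mtf2, the Polycomb-like gene best known for bringing PRC2 to CpG islands, had 18.7 and 18.2 CPM in Jmjd3 KO and 20.1 and 19.99 CPM in Tdt Control, and its log2 fold change of -0.12 had an adjusted p of 0.299. Phf1, Jarid2 and Aebp2 had log2 fold changes of 0.10, 0.12 and 0.06, with adjusted p from 0.343 to 0.646.

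In Utx KO against Tdt Control, Epop was again the single member of 9 that passed, in the other direction: it rose 1.31-fold (log2 fold change 0.39 ± 0.06, 95% interval 0.25 to 0.53, adjusted p = 0.0283). Across all genes tested 1.72% passed in either direction, 0.790% higher and 0.925% lower. This call depended on the settings. It held in 3 of 12 alternatives and was lost without any 1 of the 6 libraries, where the log2 fold change stayed between 0.34 and 0.43 and the adjusted p ran from 0.0650 to 0.169.

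The core genes had higher values in Utx KO that did not pass. Suz12 had 63.9 and 62.7 CPM in Utx KO and 52.7 and 54.3 CPM in Tdt Control, a log2 fold change of 0.24 ± 0.06 with adjusted p = 0.0935. Ezh2 had 63.8 and 61.9 CPM in Utx KO and 55.1 and 55.2 CPM in Tdt Control, a log2 fold change of 0.19 ± 0.05 with adjusted p = 0.114. Ezh1 had 17.0 and 15.4 CPM in Utx KO and 13.9 and 13.3 CPM in Tdt Control, a log2 fold change of 0.26 ± 0.07 with adjusted p = 0.140. For all 3 genes both Utx KO libraries stood above both Tdt Control libraries. Phf1 and Aebp2, which had lower values in Utx KO and did not pass, had no overlap either. The share of all genes without overlap was not counted. With DESeq2 Suz12 (adjusted p = 0.0152) and Ezh2 (adjusted p = 0.0464) passed. Phf19 had 18.7 and 19.5 CPM in Utx KO and 23.3 and 19.5 CPM in Tdt Control, with overlapping groups and a log2 fold change of -0.16 ± 0.08, which was -0.03 when Tdt Control replicate 1 was left out and -0.28 when its replicate 2 was. Mtf2, Phf1, Jarid2 and Aebp2 had log2 fold changes of -0.02, -0.10, -0.02 and -0.09, with adjusted p from 0.456 to 0.909.

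**Figure D2:**
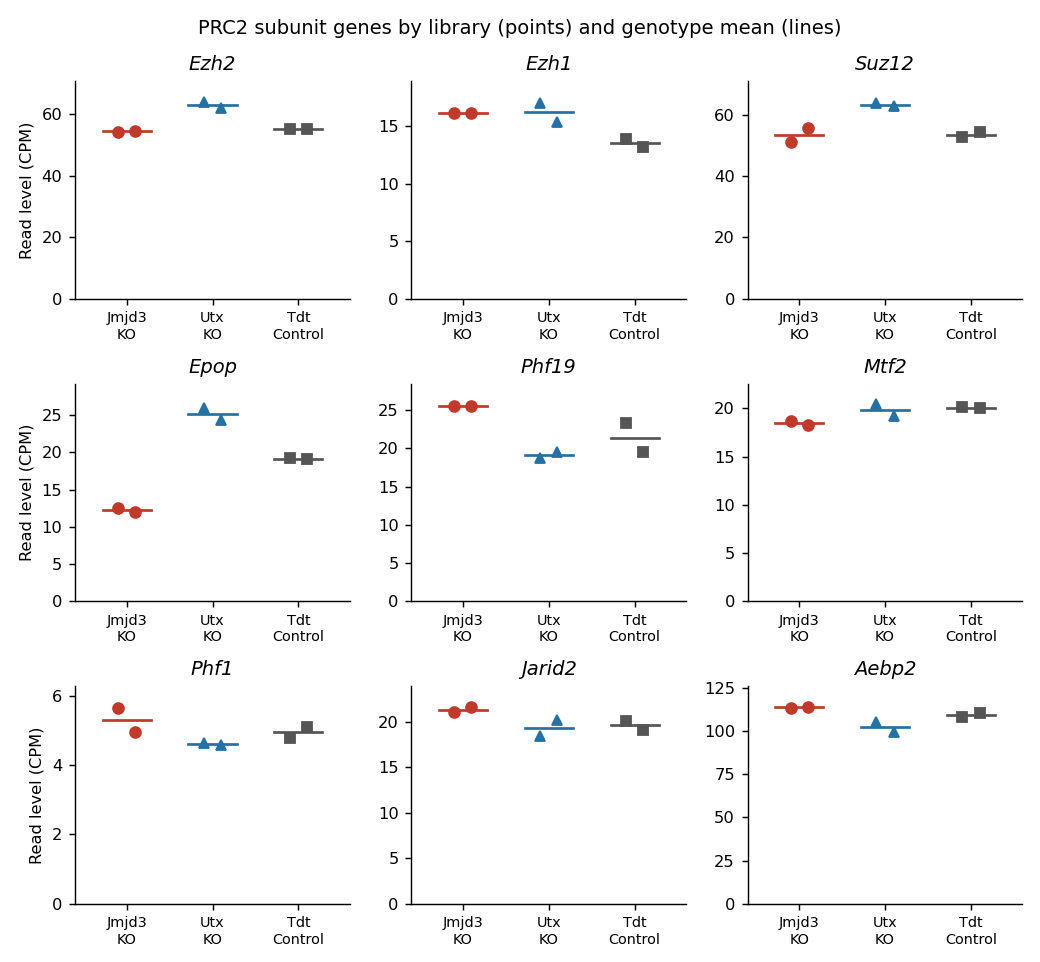
CPM of 9 PRC2 subunit genes, 1 panel per gene with its own axis from 0, points for the libraries and lines for the genotype means, from left to right Jmjd3 KO, Utx KO and Tdt Control. Epop separates the 3 genotypes at 12.0 to 12.5, 24.3 to 25.9 and 19.1 to 19.2 CPM, and Ezh2 and Suz12 are highest in Utx KO.

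Set against each other, the 2 knockouts differed in 4 of 9 members (44.4%), where 8.02% of all genes tested passed. Of the 4 members, 3 were lower in Jmjd3 KO and 1 was higher, against 2.89% and 5.13% of all genes. The median log2 fold change of the members was -0.01 and that of all genes 0.00, and the median absolute log2 fold change was 0.20 for the members and 0.15 for all genes. These calls rest partly on the same libraries as the comparisons with Tdt Control.

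Epop was 2.05-fold lower in Jmjd3 KO than in Utx KO (log2 fold change -1.03 ± 0.06, 95% interval -1.18 to -0.89, adjusted p = 0.000240), and this held in all 12 alternatives. Ezh2 was lower, with 54.2 and 54.5 CPM in Jmjd3 KO and 63.8 and 61.9 CPM in Utx KO (log2 fold change -0.21 ± 0.05, adjusted p = 0.0400). Suz12 was lower to a like degree, with 51.2 and 55.7 CPM in Jmjd3 KO and 63.9 and 62.7 CPM in Utx KO (log2 fold change -0.24 ± 0.06, adjusted p = 0.0433). Phf19 was higher, with 25.5 and 25.6 CPM in Jmjd3 KO and 18.7 and 19.5 CPM in Utx KO (log2 fold change 0.42 ± 0.08, 95% interval 0.22 to 0.62, adjusted p = 0.0261). None of these 4 genes had overlapping groups, but neither did Jarid2, Mtf2, Phf1 and Aebp2, which did not pass. The share of all genes without overlap was not counted, and 2 libraries against 2 cannot give a two-sided permutation p under 0.333.

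The calls on the last 3 genes were close to the threshold. Phf19 passed in 7 of 12 alternatives, Ezh2 in 5 and Suz12 in 4. Leaving out either Jmjd3 KO library or either Utx KO library lost all 3 calls, with log2 fold changes of 0.39 to 0.45 for Phf19, -0.23 to -0.19 for Ezh2 and -0.30 to -0.19 for Suz12, and leaving out Tdt Control replicate 1 lost those on Ezh2 and Suz12. With transcript length offsets the log2 fold change of Suz12 was -0.13, against -0.24 without them.

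The 5 members that did not pass between the knockouts included Ezh1, whose log2 fold change of -0.01 had a 95% interval of -0.17 to 0.16. Aebp2 had 114 and 114 CPM in Jmjd3 KO and 105 and 99.6 CPM in Utx KO (log2 fold change 0.15 ± 0.05, adjusted p = 0.134). Jarid2, whose protein anchors PRC2.2 to chromatin marked by PRC1, had 21.1 and 21.6 CPM in Jmjd3 KO and 18.4 and 20.2 CPM in Utx KO, and its log2 fold change of 0.15 had an adjusted p of 0.209. Mtf2 and Phf1 had log2 fold changes of -0.10 and 0.20, with adjusted p of 0.327 and 0.289.

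**Figure D3:**
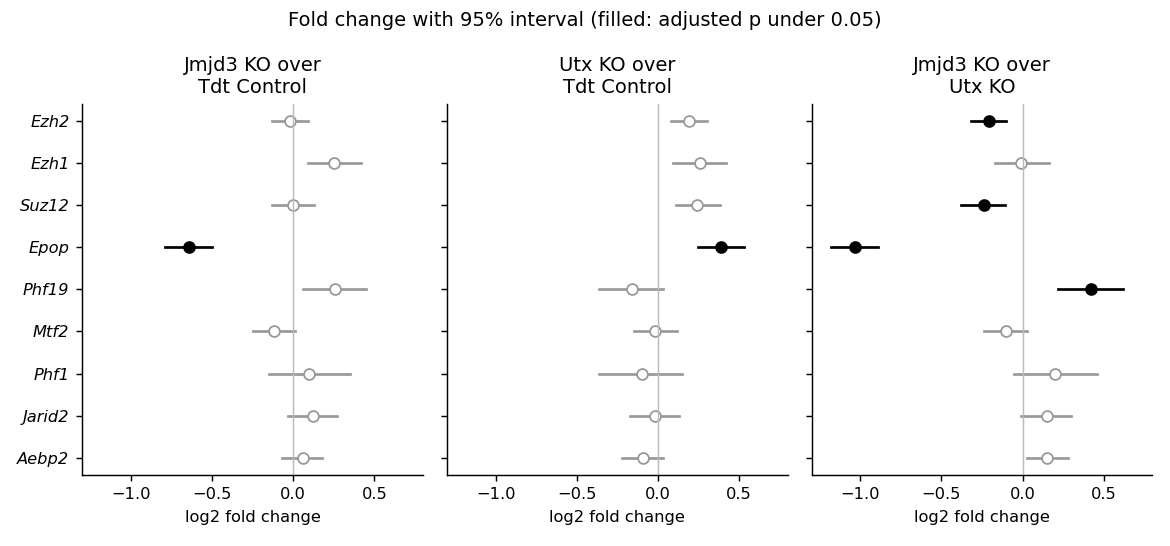
Log2 fold change (points) and 95% interval (lines) of 9 PRC2 subunit genes in 3 comparisons, with filled points where the adjusted p was under 0.05. Epop is at -0.64, 0.39 and -1.03 in the panels from left to right, and Ezh2, Suz12 and Phf19 are filled in the panel of Jmjd3 KO over Utx KO.

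**Figure D4:**
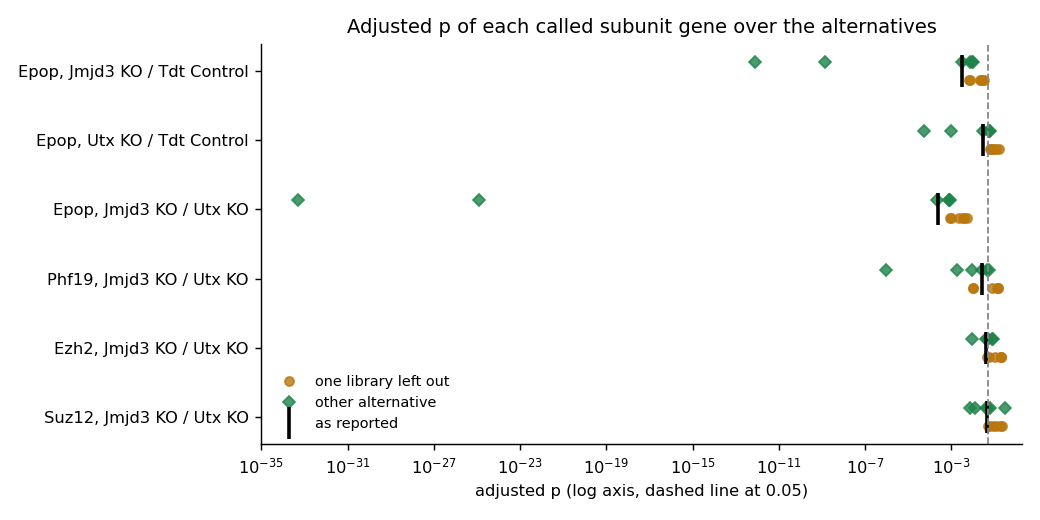
Adjusted p, on a log axis, of each member and comparison that passed, as reported (bar), with 1 library left out (circles) and under the other alternatives (diamonds), with a dashed line at 0.05. The points of Epop in Jmjd3 KO over Tdt Control and over Utx KO all lie left of the line, and those of the other 4 calls lie on both sides of it.

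Marker genes of other cells also differed between the knockouts, where 5.13% of all genes tested passed as higher in Jmjd3 KO. In Jmjd3 KO against Utx KO, 7 of 10 macrophage and monocyte markers were higher (Fcer1g, Cd68, Ly6c2, Tyrobp, Csf1r, Lyz2 and Cd14, with log2 fold changes of 0.49 to 1.37), as were 3 of 6 fibro-adipogenic markers (Lum at 0.71, Dcn at 0.78 and Col1a1 at 1.15) and 1 of 7 neutrophil markers tested (Csf3r at 0.43). No marker of these lists passed as lower. The fibro-adipogenic marker Dpt had a lower value, with 27.8 ± 1.02 CPM in Jmjd3 KO and 34.0 ± 2.25 CPM in Utx KO (log2 fold change -0.29, adjusted p = 0.118). It was the 1 fibro-adipogenic marker that was lower at an unadjusted p under 0.05. Among 6 endothelial markers none passed by edgeR, 2 had an unadjusted p under 0.05 and DESeq2 called Cdh5 higher. The 6 fibro-adipogenic markers summed to 178 and 162 CPM in Jmjd3 KO, 108 and 133 CPM in Utx KO and 134 and 149 CPM in Tdt Control.

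Against Tdt Control, 2 of 10 macrophage and monocyte markers, Cd14 (log2 fold change 0.72) and Tyrobp (0.56), were higher in Jmjd3 KO. So were 2 of 7 neutrophil markers tested, Csf3r (0.68) and S100a9 (0.95), where 1.97% of all genes were higher. No marker of the 4 lists was called lower. The neutrophil marker Ngp, below 1 CPM, had a lower value (-2.38, adjusted p = 0.0526 by edgeR). Of 6 endothelial markers 0 had a positive fold change, with a median of -0.08. In Utx KO against Tdt Control no marker of these 4 cell groups passed by edgeR. At an unadjusted p under 0.05, 7 of 10 macrophage markers had lower values in Utx KO, as did 4 of 6 endothelial and 4 of 6 fibro-adipogenic markers, with median log2 fold changes of -0.41, -0.38 and -0.33. Of the neutrophil markers 4 had higher and 1 had lower values at that threshold, with a median of 0.31. DESeq2 called Cd68, Ly6c2 and Cdh5 lower and Dpt higher in Utx KO. The part of these cells in the subunit genes' differences was not tested.

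The balance of the subunits was described per library from TPM, without a test, since 2 libraries against 2 cannot give a two-sided permutation p under 0.333. Epop made up 23.4% and 22.4% of the summed PRC2.1 accessory TPM in Jmjd3 KO, 44.2% and 39.9% in Utx KO and 32.4% and 35.9% in Tdt Control, again with no overlap. The sum itself was 21.5 and 22.2 TPM in Jmjd3 KO, 23.6 and 23.7 TPM in Utx KO and 22.2 and 21.3 TPM in Tdt Control. PRC2.1 genes held 35.1% and 36.3% of all accessory TPM in Jmjd3 KO, 40.5% and 42.0% in Utx KO and 39.6% and 37.4% in Tdt Control. The share of Epop thus differed between genotypes more than the sum did.

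The ratio of the 2 catalytic genes, Ezh2 to Ezh1, was 6.47 and 6.91 in Jmjd3 KO, 7.26 and 7.96 in Utx KO and 8.18 and 8.56 in Tdt Control, on the TPM scale. Both knockouts lay below Tdt Control on that scale. As a ratio of CPM it was 3.36 and 3.37 in Jmjd3 KO, 3.74 and 4.02 in Utx KO and 3.98 and 4.16 in Tdt Control, where Utx KO and Tdt Control overlapped and Jmjd3 KO was below both. The ratio of Phf19 to Mtf2 in TPM was 0.70 and 0.85 in Jmjd3 KO, 0.49 and 0.55 in Utx KO and 0.58 and 0.54 in Tdt Control. As a ratio of CPM it was 1.37 and 1.40 in Jmjd3 KO, 0.92 and 1.02 in Utx KO and 1.16 and 0.97 in Tdt Control. On both scales Jmjd3 KO was the highest of the 3 genotypes, and Utx KO and Tdt Control overlapped.

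Gene totals of several members are sums over transcripts of different kinds. In Mtf2, protein-coding transcripts held 20.1% to 33.4% of its TPM over the 6 libraries, and the rest was assigned to retained-intron, decay-prone and other non-coding transcripts. The place of Mtf2 in the order of levels, the PRC2.1 sums and shares and the ratio of Phf19 to Mtf2 rest on this total. The leading coding transcript, Mtf2-201, was at 1.58 to 2.33 TPM, below Epop at 4.96 to 10.5 TPM. Ezh2-201 held 65.0% to 76.2% of the TPM of Ezh2 and the leading coding transcript of Aebp2 held 50.3% to 53.1% of its TPM. The coding transcript Suz12-201 held 97.2% and 65.9% of the TPM of Suz12 in Jmjd3 KO, 85.3% and 87.2% in Utx KO and 97.8% and 88.0% in Tdt Control. Jmjd3 KO replicate 2 stood lowest, with 32.3% of its Suz12 TPM assigned to the coding transcript Suz12-206, and this spread within 1 genotype was larger than the differences between genotypes. Phf1-201 held 31.8% of the TPM of Phf1 in Utx KO replicate 1 and 74.3% to 86.6% in the other 5 libraries.

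Some members share sequence with other genes. Phf1 overlaps the antisense gene Cuta over 1370 of its 3486 exon bases, and Cuta had a mean of 25.4 TPM, so the value of Phf1 is uncertain. Mtf2 overlaps the antisense gene Tmed5 (29.7 TPM) over 395 of 5698 exon bases. Overlaps of Ezh2 and Suz12 with antisense genes covered 174 and 178 bases. The pseudogenes found to match parts of Aebp2, Mtf2 and Suz12 (534, 329 and 547 aligned bases) were at 0.0134, 0 and 0 TPM.

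Since 3 members lie on the chromosome of the deleted Kdm6b, that chromosome was counted apart. In Jmjd3 KO against Tdt Control 8.10% of 1284 genes on chromosome 11 passed, against 2.59% of the genes elsewhere. In Utx KO against Tdt Control the shares were 1.32% and 1.75%, and between the knockouts 14.5% and 7.49%. Epop lies 28.2 Mb from Kdm6b, Suz12 10.6 Mb and Ezh1 31.8 Mb. Within 1 Mb of Epop 47 other genes were tested, and in Jmjd3 KO against Tdt Control 2 of them passed, Erbb2 and Stac2, both higher. The part of the chromosome in the Epop difference was not tested.

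Genes that work with PRC2 were counted in the same fit. Rbbp4 and Rbbp7, histone chaperones of the core, passed in no comparison by edgeR. Rbbp4 had a log2 fold change of -0.20 ± 0.04 in Jmjd3 KO against Tdt Control (adjusted p = 0.0594), and DESeq2 called it lower there and in Jmjd3 KO against Utx KO. Of 25 subunit genes of PRC1, the complex that recognises the PRC2 mark and ubiquitinates histone H2A, 0 passed by edgeR in either knockout against Tdt Control. Their median log2 fold changes were -0.06 in Jmjd3 KO and 0.03 in Utx KO, against 0.00 for all genes tested, and 3 and 4 of them had an unadjusted p under 0.05. DESeq2 called Usp7 lower in Jmjd3 KO and Cbx2 higher in Utx KO. Between the knockouts 2 of 25 were lower in Jmjd3 KO, a share of 8.0% where 8.02% of all genes passed: Cbx2, a reader of the mark, with 12.6 ± 0.386 CPM in Jmjd3 KO and 16.4 ± 1.92 CPM in Utx KO (log2 fold change -0.38, adjusted p = 0.0490), and Rybp, a subunit of variant PRC1, with 26.7 ± 0.809 CPM in Jmjd3 KO and 33.4 ± 2.44 CPM in Utx KO (SD, n = 2 each; log2 fold change -0.32, adjusted p = 0.0272). None of the 4 genes of the H2A deubiquitinase passed by edgeR in any comparison, nor did the 3 for which DESeq2 gave an adjusted p, and 1 had an unadjusted p under 0.05, between the knockouts.

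Genes of the cell cycle, during which EZH2 is usually induced, were counted beside the members. Of 13 E2F and pocket protein genes, Tfdp2, a partner of E2F factors, was the only one called. It rose in Utx KO against Tdt Control (log2 fold change 0.38, adjusted p = 0.0402) and was lower in Jmjd3 KO than in Utx KO (-0.35, adjusted p = 0.0221). That is 7.69% of the list, where 1.72% and 8.02% of all genes passed in these comparisons. Of 25 S phase genes 0 passed by edgeR in Jmjd3 KO and 0 in Utx KO against Tdt Control, with median log2 fold changes of -0.15 and -0.04. In Jmjd3 KO 0 of the 25 had a positive fold change, 15 had an unadjusted p under 0.05 and DESeq2 called 3 lower (Mcm3, Mcm7 and Pole). In Utx KO 3 had an unadjusted p under 0.05 and DESeq2 called 2 lower (Lig1 and Pole). Between the knockouts Uhrf1, which recruits the maintenance DNA methyltransferase, was lower in Jmjd3 KO (log2 fold change -0.18, adjusted p = 0.0465). It was the only S phase gene called there, a share of 4.0% where 8.02% of all genes passed. The share of all genes with an unadjusted p under 0.05 was not counted, here or for the other lists.

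Of 24 genes known as PRC2 targets in other cells, 12 were tested, and their values describe only those. Another 1 passed the low-count filter but was left out, since its matched transcripts did not carry 90% to 110% of the authors' mean count. In Jmjd3 KO against Tdt Control 1 rose, where 1.97% of all genes were higher: Hoxc10, a posterior homeobox gene, with 32.0 ± 0.980 CPM in Jmjd3 KO and 26.8 ± 0.839 CPM in Tdt Control (log2 fold change 0.26, adjusted p = 0.0431). In Utx KO 2 of the 12 rose, where 0.790% of all genes were higher: the signalling ligand gene Bmp4, with 28.7 ± 1.20 CPM in Utx KO and 22.3 ± 0.960 CPM in Tdt Control (0.37, adjusted p = 0.0288), and the cell cycle inhibitor gene Cdkn1c, with 9.04 ± 2.39 CPM in Utx KO and 4.48 ± 0.426 CPM in Tdt Control (1.01, adjusted p = 0.0396). Cdkn1c was also lower in Jmjd3 KO than in Utx KO (-0.97, adjusted p = 0.0191). DESeq2 called 1 higher in Jmjd3 KO (Hoxc10, of 11 with an adjusted p) and 4 higher in Utx KO (Bmp4, Cdkn1c, Hoxa9 and Hoxc10). Neither tool called a gene lower in these comparisons among those it tested, and the median log2 fold changes were 0.24 in Jmjd3 KO and 0.11 in Utx KO.

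The genes whose levels followed the called members most closely were found by Pearson correlation of log2 CPM over the 6 libraries among 9746 genes, as a description, since the libraries share their genotypes. Those nearest to Epop were Asns (r = 0.998), which makes asparagine, Emp1 (0.997), Dapk2 (0.997), Mpp6 (0.995) and Mettl16 (0.993). Asns had 66.4 and 63.5 CPM in Jmjd3 KO, 98.4 and 93.0 CPM in Utx KO and 83.1 and 81.6 CPM in Tdt Control. Nearest to Ezh2 were Ust (0.996), Gpc4 (0.994) and Ror1 (0.994), Prpf39 (0.992) and the myogenic factor gene Myf5 (0.991). Myf5 had 59.2 and 58.0 CPM in Jmjd3 KO, 83.7 and 82.6 CPM in Utx KO and 60.3 and 62.1 CPM in Tdt Control. Suz12 was followed by Spice1 (0.996), Fut11 (0.993), Acsl3 (0.986), Cry2 (0.983) and Hars2 (0.98), and Phf19 by Irf1 (0.996), Cnot3 (0.995), Ubxn1 (0.994), Hist1h2bg (0.989) and Atf7ip (0.989).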

How the data were processed

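RNA of 6 samples was sequenced. Per the submitters' processing notes, the tools included Salmon 1.1.0, cutadapt 2.6 and DESeq2 1.28.1 (roles not stated), with GRCm38 (mm10) as genome build. Each sample's deposited table lists transcripts with estimated counts and TPM, per the file headers. The authors' deposited comparison tables give log2 fold changes, their standard errors, p-values and, as a signal, the base mean of each gene. They were used for Eed, for checking the match of transcripts and for values named as theirs. Library preparation and annotation release are not given in the sources used here.

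Of 140748 transcripts, 139448 matched GENCODE M21 with their version, 416 without it and 884 not at all. Estimated counts were summed per gene and rounded. With edgeR 4.0.16 in R 4.3.3, all libraries were fitted together (TMM, its low-count filter, genotype as the only term) and tested by quasi-likelihood. Benjamini-Hochberg adjustment ran over 17084 genes, and a gene was called at an adjusted p under 0.05. The common biological coefficient of variation was 0.0844, with 3 residual and 4.61 prior degrees of freedom. Log2 fold changes are ± SE and 95% intervals use Student's quantiles at 7.61 degrees of freedom. The alternatives were DESeq2 1.42.0, RLE size factors, no low-count filter (at least 1 read), offsets for transcript length, fits on the 4 libraries of a comparison, the replicate number as a block, and each library left out. The depth limits precision for genes of few reads, and the smallest member count was 249 reads (Phf1).

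The members and lists were chosen with earlier results of these data known. The rule named all 10 members, up to 4 genes and every called gene per list, and the 5 genes most like Ezh2 and each called member (mean of at least 5 CPM). Of the partner list, Lcor, Lcorl and Ezhip were not tested. For 2 of them the matched transcripts did not carry 90% to 110% of the authors' mean count.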

Additional observations from a re-analysis of the deposited data

Results flagged for a closer look

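The effects of the 2 deletions were compared directly, and 4 members were flagged because Jmjd3 KO and Utx KO differed by edgeR's quasi-likelihood test. Epop had a log2 fold change of -1.03 in Jmjd3 KO against Utx KO (adjusted p = 0.000240), the widest of the 4, and both Jmjd3 KO libraries (12.5 and 12.0 CPM) were below both Utx KO libraries (25.9 and 24.3 CPM). Suz12 differed by -0.24, Ezh2 by -0.21 and Phf19 by 0.42 on the same scale. No member group was large enough to look for single outlying libraries.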

How the results depend on the processing

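Of the 324 log2 fold changes of the 9 members under an alternative, over 3 comparisons, 277 kept their direction and side of the threshold, 29 lost a call, 5 gained one and 13 changed sign; the cause was not tested. In Jmjd3 KO against Tdt Control 1 member was called, 1 with any library left out, and 3 without the low-count filter (Epop, Ezh1 and Phf19). In Utx KO against Tdt Control 1 was called, 3 with DESeq2 (Epop, Ezh2 and Suz12), 2 without the low-count filter, and 0 with transcript length offsets, with only the 4 libraries compared, with the replicate block, and with any library left out (0 to 0). Between the knockouts 4 were called, 1 with transcript length offsets, 2 with the replicate block (Epop and Phf19) and 1 to 4 with a library left out. Deviations of same-numbered libraries correlated at -0.008 to -0.053, so no shared shift by replicate number was seen. The labels state no pairing, and these values cannot show whether same-numbered samples were handled together. The values that changed sign were -0.10 to 0.00 as reported. Suz12 in Jmjd3 KO against Tdt Control was 0.00 with DESeq2 and RLE, 0.01 without the low-count filter, 0.05 with length offsets, and -0.06 to 0.06 with a library left out (0.06 and 0.03 without Jmjd3 KO replicate 1 or Tdt Control replicate 2). In Utx KO against Tdt Control, Jarid2 was 0.16 with length offsets and -0.09 to 0.04 with a library left out (0.01 without Tdt Control replicate 1), Mtf2 was -0.06 to 0.02 with a library left out, and Phf1 was 0.01 with length offsets. Ezh1 between the knockouts was 0.00 without the low-count filter and -0.08 to 0.07 with a library left out.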
